A study of Mus musculus with 19 samples.

Results

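Motile cilia genes of the nasal epithelium were followed in mRNA-seq libraries of whole vomeronasal organs (VNOs). The set was chosen by name, with earlier results of these data known. It holds 45 of the 35596 genes quantified: 3 regulators of the multiciliated cell and 42 genes of the ciliary axoneme or of ciliated cells. All 45 were found and all passed the filter on low counts in every comparison. The organs came from female mice at postnatal day 21 (P21) of 2 lines in which Cre removes Smad4, the mediator shared by BMP and TGFβ signaling. The sensory neurons of the VNO are called VSNs. AP-2εCre acts in the basal ones while they are still immature, and OMPCre acts in every mature VSN. Each line had 3 libraries from mice labelled Wild Type (WT, Smad4 flox/flox by the study's methods), 3 from AP-2εCre+/- or OMPCre+/- heterozygotes (Het), and 3 from conditional knockouts that carry Cre+/- and Smad4 flox/flox (cKO). WT and Het served together as the 6 controls of a line.

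Motile cilia move mucus over the respiratory epithelium, which also lines the non-sensory side of the VNO. Their axoneme is a ring of doublet microtubules around a central pair, with dynein arms as motors and radial spokes, nexin links and tethers that coordinate them. Mcidas and Ccno drive the making of many basal bodies in 1 cell, Foxj1 switches on the genes of the motile axoneme, and RFX factors bind the X-box of many ciliary promoters. VSNs end in microvilli, and olfactory neurons in immotile cilia.

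The 18 libraries held 43385516 to 134042284 estimated counts (median 63096714). Values are CPM, estimated counts per gene scaled to library size with TMM factors, unless TPM is named. No member had fewer than 64 estimated counts in any library. The labels name VSNs as the cell type, but RNA was taken from the whole organ, and genes of other cells were present beside the 12 VSN markers, which were all at 1 CPM or more on average. Smad4, the targeted gene, had 66.1, 66.7 and 33.8 CPM in AP-2εCre cKO libraries against 39.5 to 80.8 in the controls, and 61.9, 62.4 and 54.6 CPM in OMPCre cKO libraries against 64.9 to 83.8. Its level thus did not separate the genotypes in the AP-2εCre line, whereas in the OMPCre line all 3 cKO libraries lay below all 6 controls. These counts cover the whole gene and the whole organ, so they do not measure loss of the floxed exon in basal VSNs. For AP-2εCre, the study saw that loss in sections, by in situ hybridization to this exon and by immunostaining for Smad4. Mice carried animal tags of 2 forms in the deposited names: 12 libraries had a letter and number tag (letter-named) and 6 a tag with the name of the line (line-named), 1 in each group.

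Promoters are shown for 2 regulators and 2 axonemal genes of the set. A search of the 250 bases before the RefSeq start site (GRCm38.p6) covered 38 of the 45 genes. Those not matched were Foxj1, Dnah3, Rsph1, Rsph4a, Cfap54, Cfap65 and Tppp3. The letters GTTGCC, an arm of the X-box, were searched on both strands and lay in 13 of 38 promoters (34.2%) and in 11.8% of 27025 genes. The 13 were Mcidas, Ccno, Dnah10, Drc1, Lrrc23, Spag16, Hydin, Cfap46, Tekt1, Tekt2, Cfap44, Sntn and Dynlrb2. Below are Mcidas and Ccno, which neighbour each other on chromosome 13, Drc1, the gene closest to the mean of the rest, and Spag16, which holds an arm on each strand. Capitals mark GTTGCC or its reverse complement.
Mcidas (chr13:112993618-112993867, plus strand): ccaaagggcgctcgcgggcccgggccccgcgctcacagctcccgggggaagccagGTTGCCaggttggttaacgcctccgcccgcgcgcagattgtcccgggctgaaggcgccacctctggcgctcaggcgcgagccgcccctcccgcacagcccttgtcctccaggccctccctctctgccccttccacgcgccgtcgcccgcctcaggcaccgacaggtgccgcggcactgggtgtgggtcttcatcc
Ccno (chr13:112987552-112987801, plus strand): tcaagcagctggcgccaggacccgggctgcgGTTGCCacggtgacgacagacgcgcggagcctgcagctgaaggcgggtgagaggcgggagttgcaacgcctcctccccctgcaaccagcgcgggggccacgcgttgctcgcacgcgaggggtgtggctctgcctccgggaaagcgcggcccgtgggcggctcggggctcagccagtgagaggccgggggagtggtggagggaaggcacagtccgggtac
Drc1 (chr5:30281143-30281392, plus strand): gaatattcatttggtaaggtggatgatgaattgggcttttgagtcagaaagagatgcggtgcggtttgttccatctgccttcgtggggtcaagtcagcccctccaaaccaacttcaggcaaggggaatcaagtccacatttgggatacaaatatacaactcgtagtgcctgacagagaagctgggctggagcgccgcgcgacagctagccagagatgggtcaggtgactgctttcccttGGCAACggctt
Spag16 (chr1:69826720-69826969, plus strand): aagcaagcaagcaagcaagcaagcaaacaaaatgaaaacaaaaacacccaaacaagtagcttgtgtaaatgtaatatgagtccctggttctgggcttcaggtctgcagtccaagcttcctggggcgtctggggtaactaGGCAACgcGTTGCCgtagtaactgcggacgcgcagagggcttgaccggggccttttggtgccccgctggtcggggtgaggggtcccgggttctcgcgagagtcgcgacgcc
The arm began 195 bases before the start site in Mcidas, 219 in Ccno, 11 in Drc1, and 111 and 103 in Spag16. A longer X-box, with both arms and 2 bases between them, whose letters can overlap the shorter ones, lay in Ccno and Tekt4 (2 of 38, against 1.24% of all). The forkhead letters GTAAACA lay in 3 of 38 (Cfap43, Sntn and Ak7, against 3.54%), and CCAAT lay in 14 of 38 (36.8%, against 37.5%). A match describes these letters only.

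Levels of different genes were compared as TPM, which is scaled for transcript length, over the 12 control libraries (mean ± SD). Among the regulators, Foxj1 had 33.0 ± 7.91 TPM, Ccno 2.55 ± 0.658 and Mcidas 0.868 ± 0.211, the lowest level of all 45. Of the outer dynein arm, the main motor for beat frequency, Dnah9 had 12.6 ± 4.28 TPM, Dnah5 12.4 ± 3.09, Dnaic1 7.70 ± 2.62 and Dnah11 3.85 ± 1.19. The heavy chains of the inner arm, which shape the bend, ran from 2.67 ± 0.931 TPM for Dnah12 to 6.13 ± 2.31 for Dnah6. Between them lay Dnah2 at 2.68 ± 0.719, Dnah1 at 2.92 ± 0.613, Dnah10 at 3.19 ± 1.33 and Dnah3 at 5.40 ± 1.73 TPM. Zmynd10, which helps to assemble dynein arms in the cytoplasm, had 8.68 ± 1.65 TPM.

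Ccdc40 and Ccdc39, the molecular ruler that spaces arms and spokes, had 32.3 ± 7.92 and 24.1 ± 7.17 TPM, and Drc1 of the nexin link had 38.6 ± 16.6. Of the radial spoke genes, Lrrc23 had 54.1 ± 13.8 TPM, Cfap61 39.5 ± 19.6, Rsph1 37.1 ± 8.14, Rsph9 30.9 ± 6.91 and Rsph4a 12.5 ± 2.51. Central pair genes spanned 1.96 ± 0.686 TPM for Spag17 to 79.5 ± 21.2 for Cfap69. The others were Cfap46 (2.69), Hydin (3.15), Stk36 (3.999), Cfap54 (5.94), Cfap65 (7.30), Spag16 (9.204), Cfap70 (10.7), Spef2 (10.99) and Spag6l (13.0 TPM). Spag6l has a near-identical paralog, Spag6, which had at most 0.50 CPM here, so that the split of reads between them is uncertain. Tektins and inner microtubule proteins, which stiffen the doublets, ran from Cfap126 (81.5 ± 18.95) and Cfap45 (28.1 ± 8.97) over Tekt1 (15.5 ± 3.02) and Cfap52 (14.02 ± 4.55) to Tekt2 (7.02 ± 3.13) and Tekt4 (6.99 ± 1.77 TPM). The dynein tether genes Cfap43 and Cfap44 had 13.8 ± 4.84 and 12.7 ± 5.30 TPM. Tppp3 (116 ± 22.3 TPM) and Dynlrb2, a dynein light chain (105 ± 27.4 TPM), were the highest of all, and Sntn, a protein of the ciliary tip, had 31.8 ± 6.42 and Ak7, an adenylate kinase, 14.1 ± 3.68. Adding TPM over transcripts gives weight to short annotated ones: 81.0% of Cfap61 TPM came from a transcript of 183 bases. Transcripts under 600 bases held 83.5% of Cfap69 TPM, 76.6% of Drc1, 67.3% of Cfap45, 67.1% of Ccdc40, 63.8% of Lrrc23 and 61.7% of Ccdc39. For dynein heavy chains this share was at most 21.5% (Dnah9). By CPM per kilobase of the longest transcript, a setting chosen after seeing the data, Cfap61 moved from rank 6 to 31 of 45, Cfap69 from 4 to 13 and Cfap45 from 13 to 28. Drc1 moved from 7 to 15, Ccdc40 from 10 to 17, Ccdc39 from 14 to 19, Lrrc23 from 5 to 8, Dnaic1 from 28 to 32 and Dnah6 from 32 to 24. Dynlrb2, Tppp3 and Cfap126 held the highest 3 ranks on both scales.

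Levels varied widely between libraries of one group. As the mean log2(CPM + 1) over the 45 genes, the AP-2εCre libraries had 5.02, 5.06 and 5.30 (WT), 5.42, 5.18 and 5.12 (Het), and 4.32, 5.07 and 4.62 (cKO). The OMPCre libraries had 5.19, 5.21 and 4.05 (WT), 4.91, 4.99 and 4.51 (Het), and 5.15, 4.64 and 4.42 (cKO). The lowest library was an OMPCre WT, replicate 3, in which 38 of 45 genes had their lowest level, and the highest was AP-2εCre Het replicate 1, with 21 of 45 at their highest. Summed over the genes, these 2 libraries held 986.4 and 2524 CPM. In the OMPCre line all 3 line-named libraries (4.05 to 4.51) lay below all 6 letter-named ones (4.64 to 5.21), and this held gene by gene for 21 of 45 genes (46.7%), against 9.05% of all genes tested. In the AP-2εCre line it held for 0 of 45, against 3.75% of all.

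**Figure D1:**
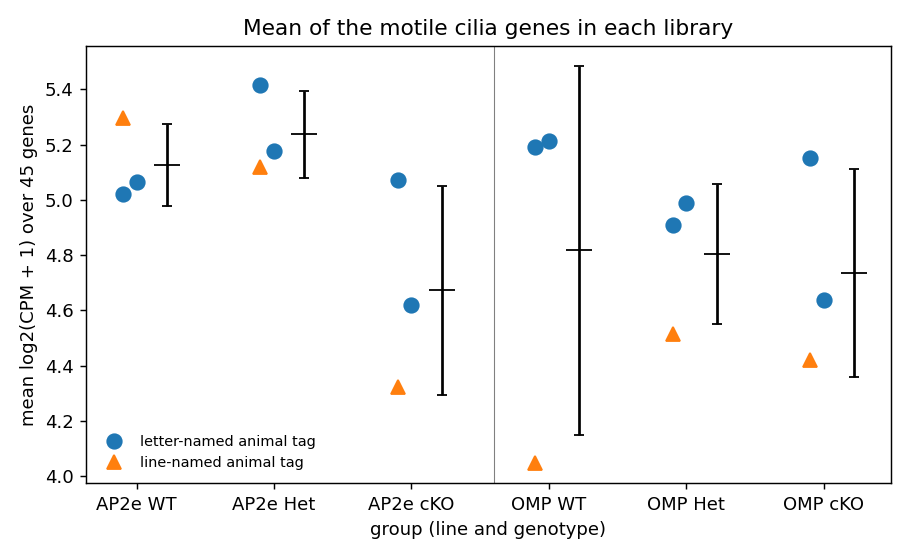
Mean log2(CPM + 1) over the 45 motile cilia genes (vertical axis) in each of the 18 libraries, by group (horizontal axis). Circles are letter-named and triangles line-named libraries, and bars give the mean ± SD of 3 libraries. In the OMPCre line the line-named library is the lowest of each group, and in the AP-2εCre line the cKO libraries run from 4.32 to 5.07.

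**Figure D2:**
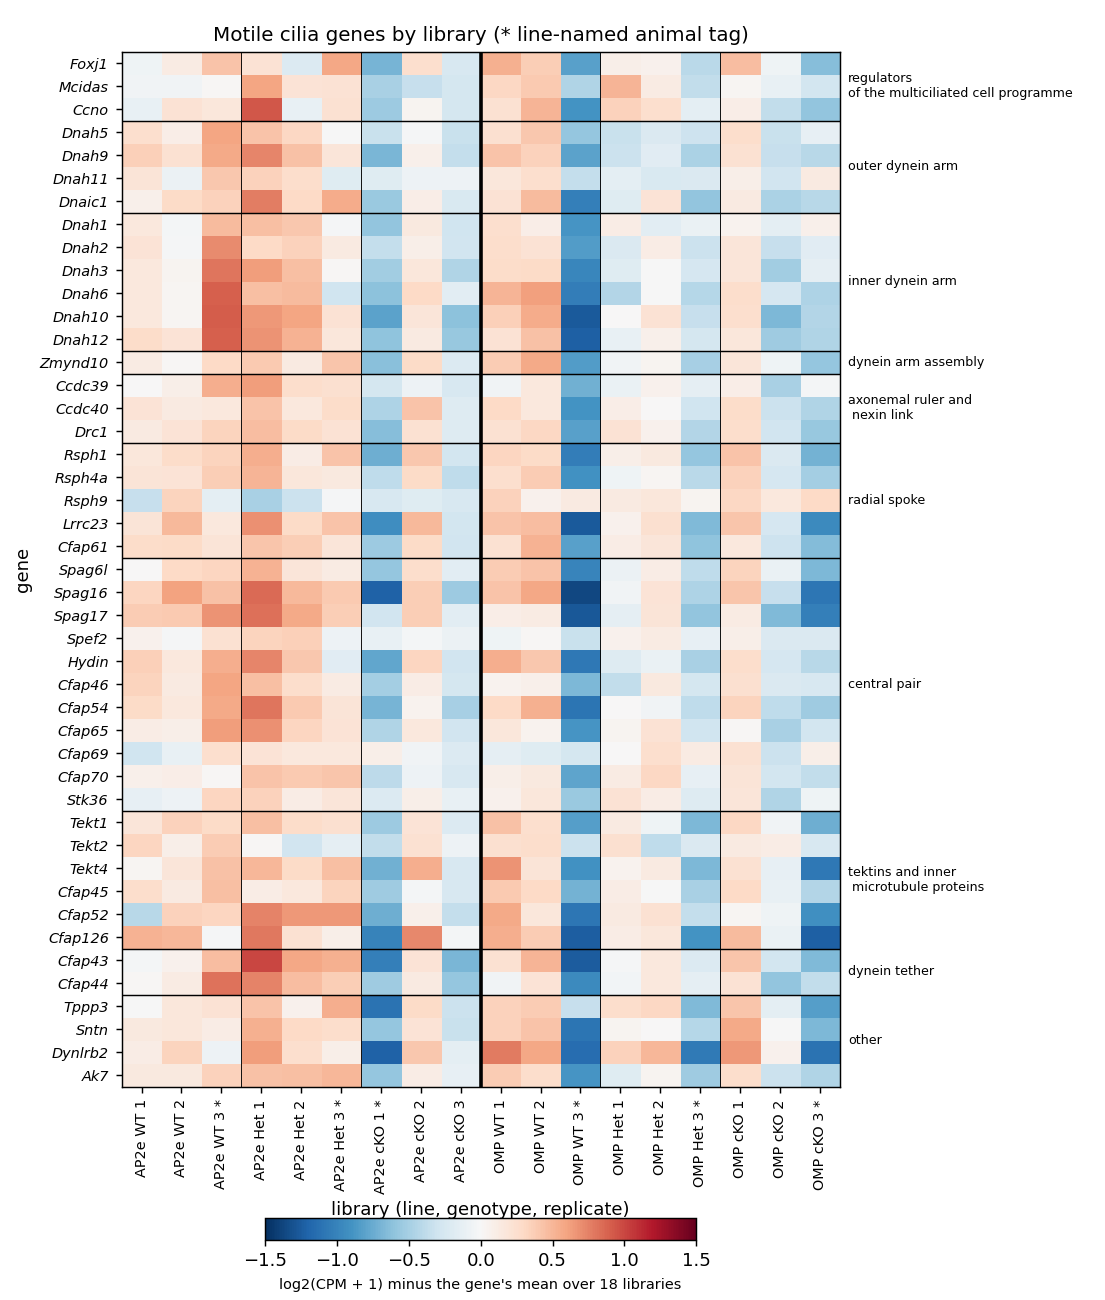
Log2(CPM + 1) of each gene (rows, by role) in each library (columns) minus the gene's mean over 18 libraries, from blue (lower) to red (higher). OMPCre WT replicate 3 is blue for nearly all genes and holds the lowest level of 38 of 45, and the rows of Cfap69 and Spef2 are the palest.

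The Pearson correlation of each gene with the mean of the other 44 over 18 libraries had a median of 0.908. It was at least 0.9 for 25 and at least 0.8 for 39 of 45 genes. Over 15793 other genes of at least 1 CPM the median was -0.05, and 2.76% reached 0.8. As deviations from the group means, which remove all differences between groups, the median was 0.923. The points share libraries and cells, so these values are a description. Drc1 (0.982) followed the rest most closely. Rsph9 (r = -0.20), a spoke head gene, and Cfap69 (r = 0.32), a central pair gene also known from olfactory neurons, followed it least, then Tekt2 (0.58), Dnah11 (0.67), Mcidas (0.76) and Spef2 (0.79). Cfap69 varied only 1.503-fold between its lowest and highest library, Spef2 1.63-fold and Dnah11 1.72-fold. The widest ranges were those of Cfap43 (5.002-fold), Spag16 (4.99-fold), Ccno (4.90-fold) and Spag17 (4.86-fold). The leading Rsph9 transcript, with 89.3% of its TPM, had r = -0.67 with the other genes.

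**Figure D3:**
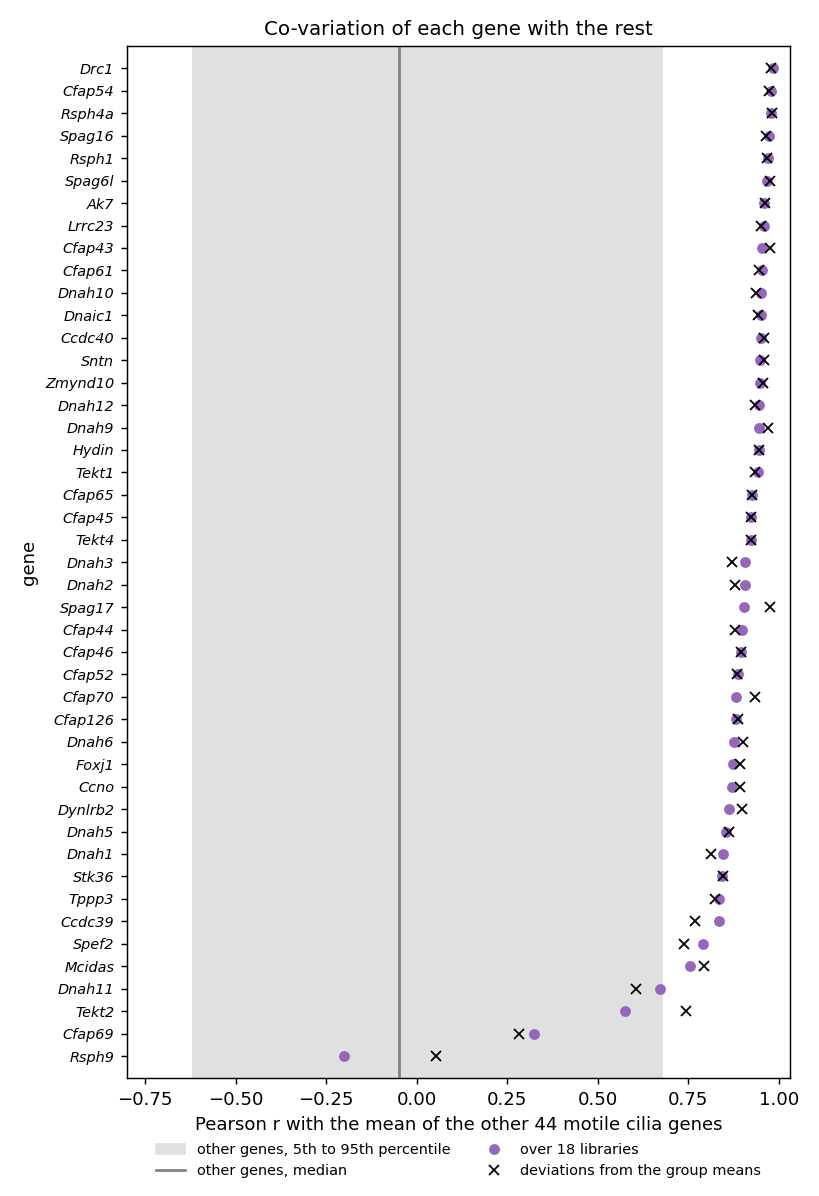
Pearson r of each gene with the mean of the other 44 (horizontal axis), over 18 libraries (points) and as deviations from the group means (crosses). The grey band spans the 5th to 95th percentile of 15793 other genes, -0.62 to 0.68, and 41 of the 45 points lie above it.

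Of all other genes, the 10 closest to the mean of the 45 by the same correlation over 18 libraries were Cdhr3 (0.987), a cadherin-related protein of ciliated cells, Cdh26 (0.980), Lrrc74b (0.979), Fam161a (0.977), Slc23a1 (0.977), Iqca (0.977), B3galt2 (0.976), Iqcg (0.975), Nme9 (0.975) and Kcnrg (0.975). Of the closest 40, 10 belonged to a list of 67 other motile cilia genes. The mean of its 65 genes of at least 1 CPM on average had r = 0.992 with the 45. For 32 genes of intraflagellar transport and the BBSome, which immotile cilia also use, r was 0.866, in a range of only 4.93 to 5.21 on the log2 scale. Markers of other cells, of at least 1 CPM on average, moved with the genes to different degrees: r was 0.899 for 10 sustentacular markers, 0.806 for 11 of respiratory secretory and goblet cells, 0.672 for 8 of nasal glands, 0.392 for immune cells, 0.334 for endothelium, 0.124 for basal cells, -0.10 for main olfactory neurons and -0.32 for VSNs. Muc5ac, a gel-forming mucin of goblet cells, ran from 26.9 CPM in OMPCre WT replicate 3 to 1960 CPM in AP-2εCre Het replicate 1 (r = 0.962). The other secretory and goblet markers were less even: r ran from -0.12 for Bpifb1 to 0.936 for Reg3g, and the mucin Muc5b had 0.358. The part of these cells in the results below was not tested.

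The first comparison asked whether motile cilia genes differed after AP-2εCre removed Smad4. All 45 were lower on average in the 3 cKO libraries than in the 6 controls, with a median log2 fold change of -0.50 (all genes tested: 0.002973, with 49.4% of them lower), but by edgeR's quasi-likelihood test 0 of 45 were called at an adjusted p under 0.05 (background: 0.0216% of 18495 genes lower, 0.0162% higher). At an unadjusted p under 0.05, 27 of 45 (60%) were lower and 0 higher, against 6.04% and 4.18% of all genes. This count was 16 without cKO replicate 1 (6.02% of all genes lower), 16 without cKO replicate 3 (4.04%), 39 without cKO replicate 2 (6.88%), 14 with WT controls alone (4.52%) and 16 with library totals in place of TMM factors (2.24%). Of the 45 genes, 43 were lower in sign without cKO replicate 1, with Het controls alone or with library totals, and 44 without WT replicate 2. DESeq2 on the same counts called 11 of 45 lower, against 1.28% of all genes lower and 0.253% higher: Dnah9, Cfap54, Dnah12, Cfap45, Dnah5, Cfap44, Cfap70, Dnah10, Ak7, Cfap43 and Ccdc39. In 10 of 45 genes (22.2%) all 3 cKO libraries lay below all 6 controls, against 2.77% of all genes. Axoneme assembly is among the terms the study lists as downregulated in this cKO, with Dnaic1, Dnah5 and Zmynd10 among its genes. The 45 genes were chosen with earlier results of these data known, so these shares are no independent test. In whole organs, fewer ciliated cells and less RNA per cell cannot be told apart.

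Among the outer arm motors, Dnah9 had 63.5, 108 and 80.0 CPM in cKO libraries, and 116 to 171 (median 135) CPM in the 6 controls. The cKO libraries lay below every control, with a log2 fold change of -0.72 (SE 0.17, edgeR adjusted p = 0.269, DESeq2 adjusted p = 0.0037). Its partner heavy chain Dnah5 had 172, 214 and 172 CPM against 216 to 327 (median 263), a log2 fold change of -0.52 (SE 0.14, edgeR adjusted p = 0.308). Dnah12 of the inner arm had 21.4, 36.02 and 21.8 CPM against 36.9 to 61.8, median 43.7 (log2 fold change -0.81, SE 0.22, edgeR adjusted p = 0.308). All 3 genes had groups that did not overlap, and cKO replicate 2 was the highest of the 3 cKO libraries for each.

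Cfap45, an inner microtubule protein, had 13.8, 19.97 and 17.2 CPM in cKO libraries against 22.1 to 28.2, median 23.8 (log2 fold change -0.53, SE 0.13, edgeR adjusted p = 0.269). Cfap54 of the central pair had 25.95, 44.3 and 29.9 CPM against 47.9 to 75.4, median 54.5 (-0.79, SE 0.19, edgeR adjusted p = 0.269). Cfap70, in the same structure, had 13.7, 17.3 and 15.4 CPM against 18.5 to 24.96, median 21.98 (-0.50, SE 0.13, edgeR adjusted p = 0.302). For these genes too, no cKO library reached a control. The adenylate kinase Ak7 had 28.9, 47.04 and 40.1 CPM against 48.5 to 62.2, median 57.7 (-0.53, SE 0.15), and the ruler gene Ccdc39 27.4, 31.3 and 27.9 against 33.3 to 51.5, median 39.5 (-0.52, SE 0.14; edgeR adjusted p = 0.317 for both).

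The regulators gave less even values. Foxj1 had 54.8, 107 and 75.5 CPM against 76.98 to 133.9 (median 100.4), so that cKO replicate 2 lay inside the control range (log2 fold change -0.38, SE 0.22, edgeR adjusted p = 0.608). Mcidas had 1.13, 1.34 and 1.48 CPM against 1.87 to 3.49, median 2.23, without overlap (-0.85, SE 0.27, edgeR adjusted p = 0.344), and Ccno 2.72, 4.60 and 3.51 against 4.02 to 9.36, median 5.21 (-0.61, SE 0.29, edgeR adjusted p = 0.517). By role, the median log2 fold change was -0.83 for the tether genes, -0.59 for outer and -0.56 for inner dynein arm genes, -0.54 for central pair, -0.45 for spoke and -0.44 for tektin and inner microtubule genes. The smallest differences were those of Rsph9 (-0.09), Cfap69 (-0.12) and Tekt2 (-0.15), 3 of the 4 genes that followed the rest least.

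The 3 cKO libraries were unlike each other. Replicate 1, line-named, lay below all 6 controls for 43 of 45 genes (19.7% of all genes tested), replicate 3 for 38 (15.7%), and replicate 2 for 10 (16%), with 33 inside the control range. Without replicate 1 the median log2 fold change of the genes was -0.33, and without replicate 2 it was -0.75. In replicate 1 long transcripts were also higher relative to short ones: the longest of 3 equal sets of all genes exceeded the shortest by 0.24 on the log2 scale, against -0.17 to 0.06 in all other libraries but OMPCre Het replicate 3 (0.27) and OMPCre cKO replicate 3 (0.25), all 3 line-named. Between the 15 longest and the 15 shortest of the 45 genes the same difference was 0.19 in replicate 1, 0.21 and 0.36 in those OMPCre libraries, and -0.31 to 0.44 over all 18. It was positive in letter-named libraries too (0.24 in AP-2εCre Het replicate 2) and negative in the line-named AP-2εCre Het replicate 3 (-0.20) and OMPCre WT replicate 3 (-0.08). The part of transcript length in the differences was not tested. Among letter-named libraries alone, chosen after seeing the data, 43 of 45 genes were lower (49.6% of all genes) with a median of -0.32, 9 of 45 (20%) at an unadjusted p under 0.05 against 5.02% of all genes, and the log2 fold change of Foxj1 was 0.003. The line-named cKO library had a mean of 4.32 against 5.21 ± 0.124 in the 2 line-named controls.

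**Figure D4:**
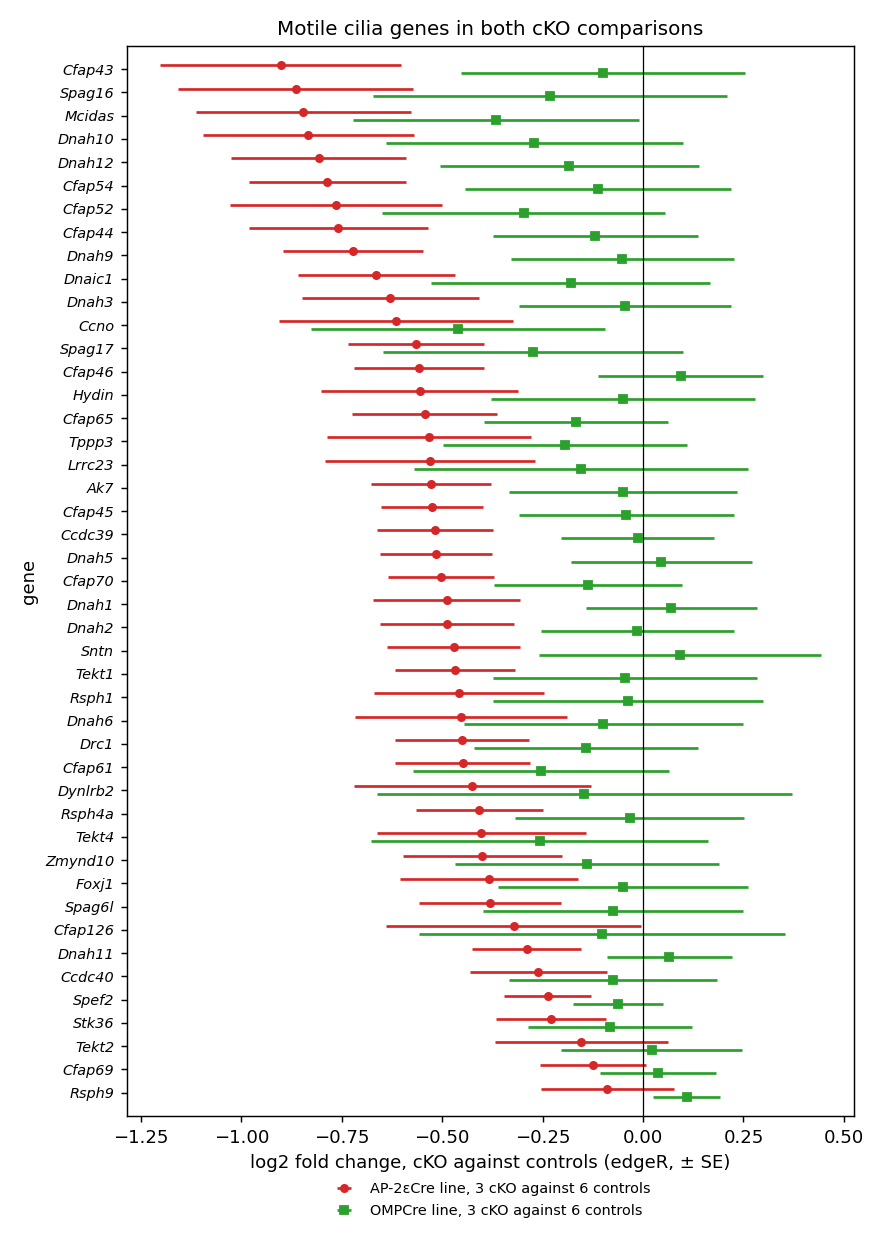
Log2 fold change of each gene, cKO against the 6 controls of its line (horizontal axis, edgeR, ± SE), in the AP-2εCre line (circles) and the OMPCre line (squares), sorted by the AP-2εCre value. All circles lie below 0, from -0.90 for Cfap43 to -0.09 for Rsph9, and the squares lie from -0.46 to 0.11.

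Markers of other cells differed beside these genes. Of 8 nasal gland markers, 8 were lower in AP-2εCre cKO libraries, 6 at an unadjusted p under 0.05 and 0 called, with a median log2 fold change of -0.97. Their sum was 35030 to 48580 CPM in cKO libraries against 60440 to 104600 in the controls. Respiratory secretory and goblet markers were lower in 9 of 11 tested (4 at an unadjusted p under 0.05, median -0.53), and their sum was 6186 to 11110 against 8715 to 13400 CPM. Muc5ac had 44.8, 238 and 117 CPM against 301 to 1960, and Bpifb1, of the same list, 237, 397 and 2269 against 45.6 to 723. Sustentacular markers were lower in 9 of 10 (median -0.16, 1315 to 1549 against 1618 to 3390 CPM). Basal cell markers were lower in 5 of 6 (median -0.35), endothelial ones in 3 of 6 (-0.01), and immune markers were higher in 8 of 8 (median 0.35). VSN markers were lower in 6 of 12 (median 0.03, 1868 to 2115 against 1445 to 2103 CPM) and main olfactory neuron markers higher in 9 of 11 (median 0.12). Of the markers, edgeR called 0 (unadjusted p under 0.05: 3 immune markers higher, 2 VSN markers lower and 1 higher, 2 main olfactory markers higher, 4 sustentacular and 1 basal marker lower), and DESeq2 called 4 nasal gland and 2 secretory and goblet markers lower. The part of these cells in the differences of the 45 genes was not tested.

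Other lists of the pathway differed in how many genes were lower. Of 66 other motile cilia genes tested, 63 were lower, 29 at an unadjusted p under 0.05 and 0 called by edgeR (5 by DESeq2), with a median log2 fold change of -0.43. Intraflagellar transport and BBSome genes had a median of -0.08, with 24 of 32 lower and 8 higher, 5 of them lower at an unadjusted p under 0.05. Of 12 further regulators of multiciliated cells, 8 were lower and 4 higher (median -0.10). Deup1, which builds the platform for basal bodies, had a log2 fold change of -0.84 (SE 0.30, edgeR adjusted p = 0.381), E2f4, a partner of Mcidas, 0.30 (SE 0.10, edgeR adjusted p = 0.367), and Trp73, which acts upstream of Foxj1, 0.01 (SE 0.13).

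The OMPCre comparison asked the same of Smad4 removal in mature VSNs. The median log2 fold change was -0.08, with 37 of 45 genes lower (51.3% of all genes) and 8 higher. None of the 45 was called by edgeR (background: 0% of 18623 genes), 0 reached an unadjusted p under 0.05 in either direction (1.88% of all genes lower, 2.06% higher), and DESeq2 called 0 (0.101% of all lower, 0.132% higher). In 0 of 45 genes did the groups separate, against 0.95% of all genes lower and 1.41% higher. The 8 genes with the lowest p were Rsph9 (log2 fold change 0.11, SE 0.08, unadjusted p = 0.226), Ccno (-0.46, SE 0.37), Mcidas (-0.37, SE 0.36), Cfap52 (-0.30, SE 0.35), Cfap61 (-0.25, SE 0.32), Spag17 (-0.27, SE 0.37), Dnah10 (-0.27, SE 0.37) and Cfap65 (-0.17, SE 0.23), each with an edgeR adjusted p of 1. Foxj1 had 123, 85.2 and 57.2 CPM in cKO libraries against 50.5 to 129, median 94.1 (-0.05, SE 0.31), and the sign turned without cKO replicate 3, WT replicate 1 or WT replicate 2. Rsph9 had 30.8, 27.7 and 30.6 CPM against 25.4 to 31.7 (median 27.2).

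The spread between controls was wider in the OMPCre line. The mean over the genes had an SD of 0.452 over its 6 controls and 0.1496 over those of the AP-2εCre line. Among the letter-named libraries alone, OMPCre controls had 5.08 ± 0.151 (n = 4) and the 2 cKO libraries 4.64 and 5.15. Without cKO replicate 1 the median log2 fold change was -0.348 with 42 of 45 genes lower, and without WT replicate 3 it was -0.22. Its sign turned without cKO replicate 3 (0.058), WT replicate 1 (0.010) or WT replicate 2 (0.013). Respiratory secretory and goblet markers were lower in 8 of 11 (median -0.13) nasal gland markers higher in 5 of 8 (median 0.10), and basal cell markers lower in 5 of 6 (median -0.52). OMPCre WT replicate 3, the library lowest in cilia genes, stood apart in some basal cell markers. It had 504 CPM of Krt5 and 343 CPM of Krt14 against 73.3 to 242.8 and 12.99 to 97.1 in the other OMPCre libraries. It was also the highest of the OMPCre libraries in Trp63 (61.2 CPM) and Col17a1 (112.7 CPM). It was not in Krt15 (100.8 CPM against 42.7 to 243) or Dst (303.8 CPM, against 341.1 in cKO replicate 3). The part of these cells in the values of the 45 genes was not tested.

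The difference between both cKO effects was tested directly. It was negative for all 45 genes (AP-2εCre lower, median -0.38), but 0 of 45 were called (0% of 19465 genes lower), DESeq2 called 0 (0.145% lower, 0.0907% higher), and 2 of 45 were lower at an unadjusted p under 0.05, against 2.49% of all genes lower and 2.56% higher. Of all genes, 50.6% were negative and 0.00514% were called higher. Without OMPCre cKO replicate 1, 35 of 45 were negative with a median of -0.155, and without AP-2εCre cKO replicate 1, 41 were, with a median of -0.256. OMPCre WT replicate 3 (43 negative, -0.25) and AP-2εCre Het replicate 1 (44 negative) also ended the shared sign when left out. With library totals in place of TMM factors 40 of 45 were negative, with a median of -0.232. At an unadjusted p under 0.05, 0 of 45 were then lower (0.724% of all genes). With counts from length-scaled TPM 43 were negative, with a median of -0.407, and 5 were lower at an unadjusted p under 0.05 (2.23%). Without AP-2εCre cKO replicate 2 the median was -0.641, with 6 of 45 lower at an unadjusted p under 0.05 (2.43% of all genes), and without OMPCre cKO replicate 3 it was -0.571. Cfap46 differed by -0.65 (SE 0.29), Dnah5 by -0.58 (SE 0.27) and Dnah9 by -0.69 (SE 0.34), with edgeR adjusted p = 0.969, 0.986 and 0.988. Among letter-named libraries alone the median was -0.15 and 37 of 45 were negative (49.2% of all genes).

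Controls were compared to see what moved without a knockout. In AP-2εCre Het against WT the median log2 fold change was 0.11 and 36 of 45 genes were higher (51.6% of all), with 0 called by edgeR (0.00561% of 17827 genes higher, 0.0168% lower). At an unadjusted p under 0.05, 4 were higher (2.66% of all) and 1 lower (2.52%). The number higher was 8 without WT replicate 3 (3.16% of all). It was 2 without WT replicate 1 (1.8%), WT replicate 2 (2.98%) or Het replicate 1 (1.77%). Cfap70 had 24.96, 24.3 and 24.7 CPM in Het and 19.4, 19.7 and 18.5 in WT (log2 fold change 0.36, SE 0.09, edgeR adjusted p = 0.606), which turned to -0.09 with counts from length-scaled TPM. Cfap43 (0.55, SE 0.18, edgeR adjusted p = 0.812) and Cfap52 (0.58, SE 0.20, edgeR adjusted p = 0.848) were next. Of the 45 genes, 6 had all Het above all WT libraries, against 4.9% of all genes, and 1 had all below (4.87%). DESeq2 called 0 of the 45 (0.425% of all lower, 0.335% higher). Without Het replicate 1 the median was -0.004, and among letter-named libraries alone it was 0.30 with 15 of 45 genes higher at an unadjusted p under 0.05 (4.29% of all). In OMPCre Het against WT the median was -0.13 and 33 of 45 genes were lower (50.9% of all), with 0 called by edgeR (0.0221% of 18124 genes in each direction) or DESeq2 (0.301% lower, 0.424% higher), and 1 higher and 0 lower at an unadjusted p under 0.05 (2.89% and 2.65% of all genes). The lowest p were those of Cfap69 (66.2 ± 5.82 against 52.7 ± 2.49 CPM, n = 3 each, log2 fold change 0.33, SE 0.09, edgeR adjusted p = 0.726), Dnah5 (-0.37, SE 0.24) and Dnah11 (-0.25, SE 0.17). Without WT replicate 3 the median was -0.43, 43 of 45 genes were lower, and 19 were lower at an unadjusted p under 0.05 (3.8% of all genes). The sign of the median turned without WT replicate 1 (0.071), WT replicate 2 (0.111) or Het replicate 3 (0.032). With the replicate number as a block the median was -0.02 and with the tag series as covariate -0.02, each with 24 of 45 genes lower. Among letter-named libraries alone 20 of 45 genes were lower at an unadjusted p under 0.05, against 4.25% of all genes.

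Between the lines, 44 of 45 genes were higher in AP-2εCre than in OMPCre controls (48.5% of all genes), with a median log2 fold change of 0.36, 0 called by edgeR (0.067% of 17912 genes higher, 0.0279% lower) or DESeq2 (0.349% higher, 0.248% lower). At an unadjusted p under 0.05, 11 were higher (3.27% of all) and 1 lower (3.3%). Spag17, a central pair scaffold, had 20.02 to 27.8 CPM in the 6 AP-2εCre controls and 5.73 to 17.68 in the 6 OMPCre controls, without overlap (0.77, SE 0.22, edgeR adjusted p = 0.491). It was the only gene of the 45 whose groups did not overlap, against 0.24% of all genes higher. Cfap46 (0.50, SE 0.15) and Ccdc39 (0.43, SE 0.15) followed. Rsph9 was the 1 gene on the other side (22.3 ± 5.02 against 27.5 ± 2.25 CPM, n = 6 each). The number higher at an unadjusted p under 0.05 was 22 without OMPCre WT replicate 1 (3.93% of all) and 20 without OMPCre WT replicate 2 (3.83%). It was 5 to 7 without AP-2εCre WT replicate 3, AP-2εCre Het replicate 1 or 2, or OMPCre Het replicate 1 or 3 (2.57% to 3.36% of all). With the tag series as covariate the median was 0.416, with 25 of 45 higher at an unadjusted p under 0.05 (4.3%). Without OMPCre WT replicate 3 the median was 0.22. Among letter-named libraries alone it was 0.12, with 11 of 45 genes lower (49.5% of all genes) and 2 higher at an unadjusted p under 0.05 (4.12%). With the replicate block the median was 0.196 and 10 of 45 genes were lower. At an unadjusted p under 0.05, 1 was then lower (4.3% of all genes) and 2 higher (3.56%). Over all 6 groups, edgeR called 0 of 45 genes for any difference against 0.765% of 19465 genes, and 2 had an unadjusted p under 0.05 against 10.5%. DESeq2 called 1 of 45 against 4.39%. The lowest p belonged to Rsph9 (edgeR adjusted p = 0.296, DESeq2 adjusted p = 0.0461), then Dnah9 (edgeR adjusted p = 0.448) and Spag17 (edgeR adjusted p = 0.477).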

How the data were processed

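Whole VNOs of P21 female mice were profiled as stranded poly(A) mRNA libraries (single reads of 75 cycles). The authors quantified transcripts with Salmon 0.14.0 on mm10 (GRCm38). The deposited files hold estimated counts and TPM per transcript for each library, and the authors' own tests used DESeq2 1.22.2. Estimated counts of 116072 of 116248 transcripts were summed to 35596 genes and rounded, and the 176 others held at most 0.0324% of counts. TPM was summed per gene. CPM used TMM factors, and log2 values used a pseudocount of 1.

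Groups followed the labels. A 19th library, labelled Het but with a cKO genotype, entered no comparison. Whether libraries of a group are more than technical repeats rests on the labels, and p-values measure the spread between them. Each comparison was fitted across all genes that passed filterByExpr with edgeR 4.0.16 (quasi-likelihood test, R 4.3.3, Benjamini-Hochberg adjustment, threshold 0.05). DESeq2 1.42.0 was an alternative, beside other normalizations, filters, counts, controls, covariates, a replicate block and leaving out each library. Tables used Python 3.11.15, numpy 2.4.6 and pandas 2.3.3. The fits were tested on simulated data first.

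The members and gene lists were chosen with earlier results of these data known. Every member is named with its level. Fold changes are given for the 8 members with the lowest p in each cKO comparison plus Foxj1, Mcidas and Ccno, and for the lowest 3 elsewhere, since edgeR called none. Of other genes, Smad4, the 10 with the closest pattern and list genes a result turned on are named. The members of smallest fold change, Muc5ac, Deup1, E2f4 and Trp73 were chosen after their values were seen. So were the other secretory, goblet and basal cell markers named singly.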

Additional observations from a re-analysis of the deposited data

Results flagged for a closer look

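In groups of 6 controls, 92 tests for a sample far from the others (Dixon's test) marked 5 values, and chance marks about 1 in 20. Ccno had 9.36 CPM in AP-2εCre Het replicate 1, above the other controls, and Cfap52 had 14.4 CPM in AP-2εCre WT replicate 1, below them. In OMPCre WT replicate 3, Dnah1 (15.3 CPM), Ccdc39 (19.7 CPM) and Cfap44 (19.02 CPM) lay below the other controls of the line.

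The library without a group, which no comparison used, lay above all 6 AP-2εCre controls for 3 of the 45 genes, with 46.2 CPM of Dnah11, 75.3 CPM of Spef2 and 82.3 CPM of Cfap69. It lay below all 6 for 10 of the 45 genes. Of all genes tested, 16% lay above and 17.1% below all 6 in this library.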

How the results depend on the processing

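No member was called by edgeR in any comparison when any 1 library was left out. DESeq2 called 11 members in the AP-2εCre cKO comparison and 1 for any difference. Genes called over all genes were 7, 0, 4, 8, 17, 1 and 149 for AP-2εCre cKO, OMPCre cKO, AP-2εCre Het, OMPCre Het, the controls of both lines, the difference of the cKO effects and any difference. With DESeq2 they were 316, 46, 177, 147, 130, 52 and 854. With at least 10 counts in every library OMPCre cKO had 2, AP-2εCre Het 2, OMPCre Het 1, the controls 5 and the difference 2, and with at least 1 count in total AP-2εCre Het had 8 and the difference 2. With counts from length-scaled TPM AP-2εCre cKO had 2, OMPCre Het 3, the controls 11 and any difference 92. With the tag series as covariate AP-2εCre cKO had 2, OMPCre cKO 1, AP-2εCre Het 2 and the difference 2. With all 18 libraries in 1 fit AP-2εCre cKO had 16, OMPCre cKO 15, AP-2εCre Het 33 and the controls 39. With WT controls alone AP-2εCre cKO had 24, and with Het controls alone OMPCre cKO had 11. Among letter-named libraries alone the counts were 2 (AP-2εCre cKO), 0 (AP-2εCre Het), 26 (OMPCre Het), 8 (controls), 2 (difference) and 66 (any difference). Leaving out each library gave 2 to 8, 0 to 2, 3 to 28, 0 to 15, 13 to 25, 0 to 5 and 77 to 166 in the order above. The cause of these moves was not tested.

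The AP-2εCre cKO median of the members was -0.50, -0.348 with library totals only, -0.319 among letter-named libraries and -0.745 to -0.328 with each library left out. The same ranges were -0.348 to 0.058 for OMPCre cKO, -0.004 to 0.201 for AP-2εCre Het (0.303 among letter-named libraries), -0.429 to 0.111 for OMPCre Het, 0.22 to 0.463 for the controls and -0.641 to -0.155 for the difference. The mean of the members, AP-2εCre cKO minus controls, was -0.51, -0.288 on deposited TPM, -0.324 among letter-named libraries and -0.711 to -0.336 with each library left out (OMPCre -0.283 to 0.082). Median co-variation was 0.749 on log2(TPM + 1), 0.863 by Spearman's rho, 0.872 among letter-named libraries, 0.923 as deviations and 0.893 to 0.924 with each library left out. Foxj1 turned to 0.003 in the AP-2εCre cKO comparison among letter-named libraries, and in the OMPCre one to 0.064 with Het controls alone, 0.073 and 0.024 without WT replicates 1 and 2, and 0.183 without cKO replicate 3 (range -0.374 to 0.183). Cfap70 in AP-2εCre Het turned to -0.092 with length-scaled TPM.

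Replicate numbers were not taken to pair the libraries, since not every same-numbered pair correlated over 0.1 in either line: deviations had r of -0.338 to 0.206 in the AP-2εCre line (2 of 9 pairs over 0.1, 4 of 18 best with their own number) and 0.0352 to 0.565 in the OMPCre line (7 of 9, 13 of 18), where all pairs of replicates 1 and 3 were over 0.1, a hint from the data only, and replicate 3 is the line-named library of each OMPCre group. With the replicate block AP-2εCre cKO had 2 genes called, OMPCre Het 2, the difference 0 and any difference 41, and the medians of the members were -0.509 (AP-2εCre cKO), -0.071 (OMPCre cKO), 0.119 (AP-2εCre Het), -0.019 (OMPCre Het, -0.128 without the block), 0.196 (controls, 0.3585 without it) and -0.453 (difference).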

Other observations

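The library labelled Het with a cKO genotype had a mean log2(CPM + 1) of 5.15 over the 45 genes when normalized together with the AP-2εCre libraries. The AP-2εCre controls then had 5.02 to 5.42 and the cKO libraries 4.33 to 5.08. Its Foxj1 level was 92.8 CPM, inside the control range of 77.3 to 133.6. Mcidas (1.57 CPM) and Ccno (3.67 CPM) lay below the lowest control (1.87 and 4.02 CPM).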
